A study of Homo sapiens with 12 samples.

Results

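Transcripts were compared between LMSU cells with the second of 2 hairpins against p53 (p53 shRNA 2) and LMSU cells with empty vector, both labelled as treated with doxycycline. LMSU is an established human gastric cancer line that carries the p53 variant R175H, per the labels. The comparison uses 4 of the 12 RNA sequencing libraries of the series, 2 with p53 shRNA 2 and 2 with vector. They were fitted together with 2 libraries of p53 shRNA 1, a different hairpin against p53, and 2 of a scramble hairpin, which are also labelled as treated with doxycycline. The labels mark the variant as absent in the libraries of both p53 hairpins and as present in scramble and vector. They name no target sequence, do not say which of the constructs doxycycline switches on, and do not tell if the cells were clones or pools, and give no word on separate cultures for the 2 libraries of each group. P-values here therefore measure only the spread between these libraries, which may be technical.

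The p53 protein is a transcription factor that responds to DNA damage and other stress. In its wild-type form it switches on genes such as CDKN1A, whose product p21 stops the cell cycle, and MDM2, whose product marks p53 for degradation. Arrest through p21 lowers the transcription of cell cycle genes by way of the DREAM complex, a repressor that sits on elements such as CHR in their promoters. The R175H change lies in the DNA-binding domain, disturbs its fold and removes binding to such targets. Tumour cells often keep the variant protein at a high level, and effects of it that do not need direct DNA binding have been described, on NF-kB signalling among others.

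Library totals ran from 9738094 to 16823246 counts over the 8 fitted libraries, with 13106727 and 14001411 counts for p53 shRNA 2 and 13836692 and 16823246 counts for vector. Levels are given for each of the 2 libraries of a group as CPM, counts scaled by the library total multiplied by its TMM factor, a scaling that takes most genes as unchanged. The biological coefficient of variation was 3.08% over the 8 libraries, so that small differences passed the test. The labelled gastric cell type was not borne out by several epithelial markers: EPCAM and CDH1 had 0 to 2 counts per library, KRT19 had 0 to 4, and KRT20 and TFF1 had 0 in all 8. The keratins KRT8 and KRT18 had 1939 to 2767 and 2218 to 4236 counts, and the mesenchymal genes COL1A1 and VIM had 60743 to 106265 and 148730 to 264993 counts.

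CDKN1A, the gene of p21, rose. It was at 184 and 198 CPM with p53 shRNA 2, against 66.9 and 65.3 CPM with vector, a rise of 1.53 on the log2 scale (standard error, SE, 0.054; adjusted p 1.4e-27 in the quasi-likelihood test of edgeR). Both p53 shRNA 2 libraries lay above every other library of the 8. The gene was at 80.3 and 85.6 CPM with p53 shRNA 1 and at 109.9 and 113 CPM in scramble, so scramble also exceeded vector (log2 fold change 0.75, adjusted p 2e-15). Against scramble the rise with p53 shRNA 2 was 0.78 (adjusted p 7.5e-17), and against p53 shRNA 1 it was 1.20 (adjusted p 1.2e-22). MDM2 was at 37.8 and 35.7 CPM with p53 shRNA 2 and at 39.2 and 39.4 CPM with vector, a log2 fold change of -0.10 that did not pass the test (SE 0.074, adjusted p 0.29).

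**Figure D1:**
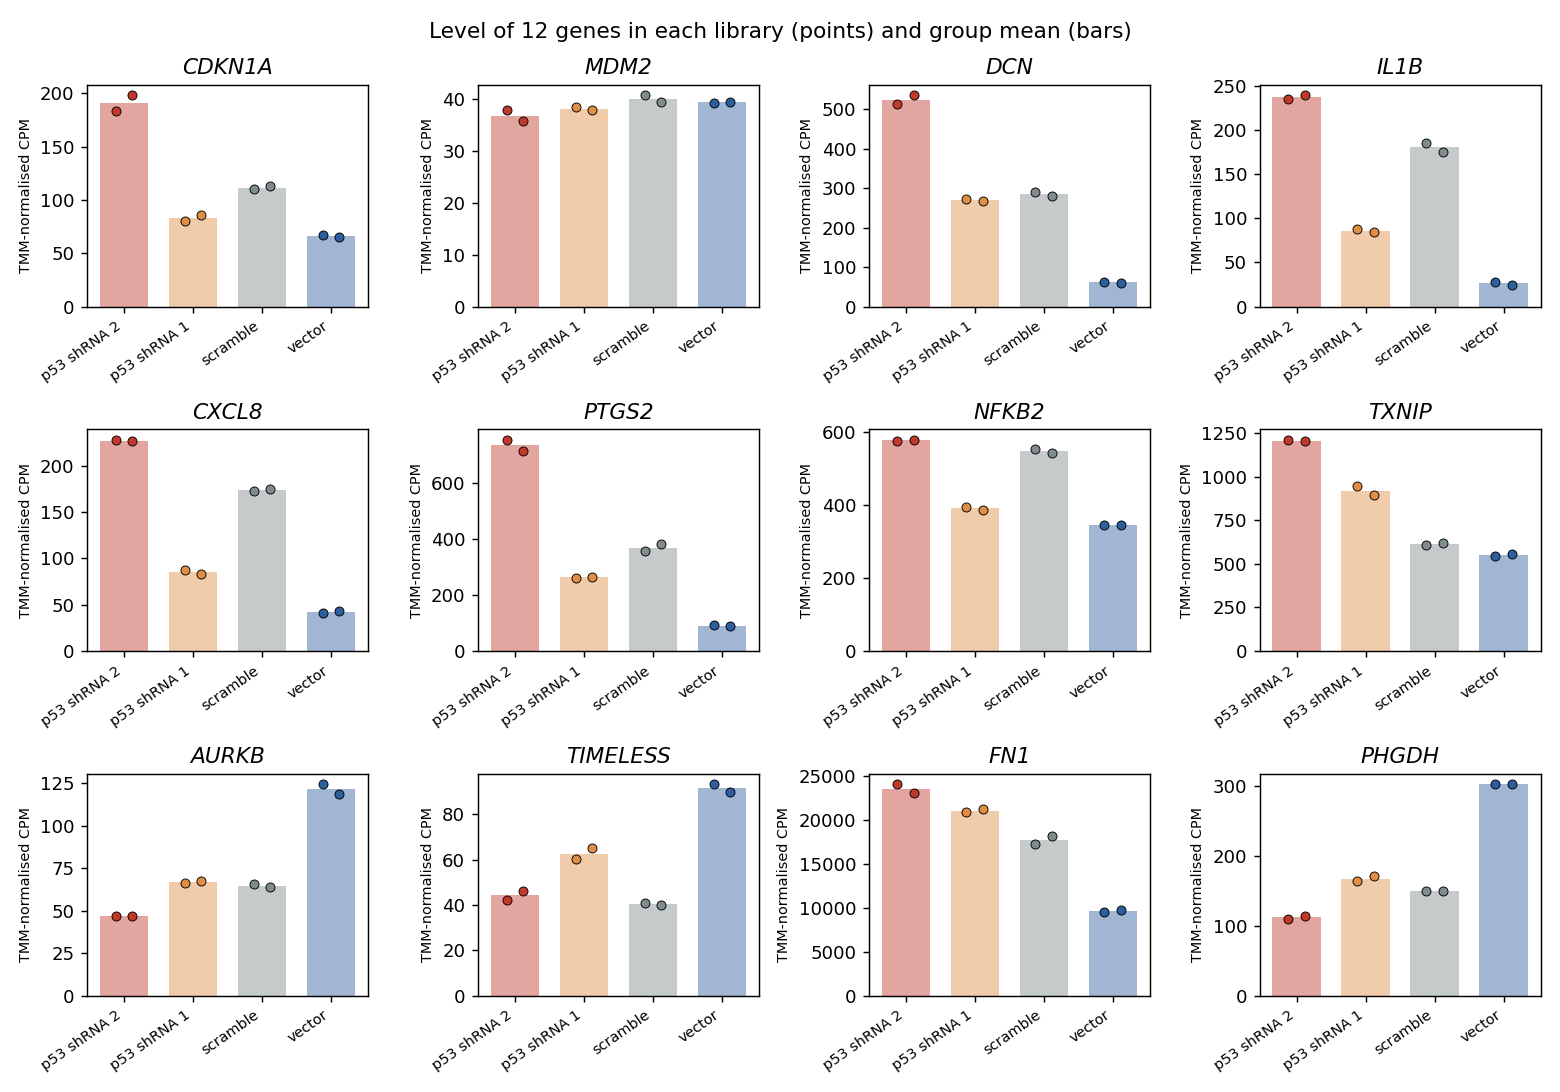
Levels of 12 genes in TMM-normalised CPM (vertical axes, from 0) for p53 shRNA 2, p53 shRNA 1, scramble and vector; points are the 2 libraries of a group and bars their mean. CDKN1A, DCN, IL1B, CXCL8, PTGS2, TXNIP and FN1 are higher, and AURKB, TIMELESS and PHGDH lower, in p53 shRNA 2, p53 shRNA 1 and scramble than in vector.

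Over all 12980 genes tested, 6066 (46.7%) were called at an adjusted p below 0.05. Of these, 2943 (22.7%) rose and 3123 (24.1%) fell with p53 shRNA 2. The median log2 fold change was 0.005. Most calls were small: 644 genes (4.96%) were called and changed at least 2-fold, 298 (2.3%) of them upward and 346 (2.67%) downward. In a test against a fold of 1.5, 747 genes (5.76%) passed, 314 (2.42%) higher and 433 (3.34%) lower. Values in parentheses after a gene name are log2 fold changes of p53 shRNA 2 over vector, with edgeR adjusted p-values, unless another comparison is named. Any count of list members below is to be read against these shares.

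The 2 control constructs also differed from each other. In p53 shRNA 2 against scramble 4091 genes (31.5%) were called, of which 2162 (16.7%) rose and 1929 (14.9%) fell, and in scramble against vector 5462 (42.1%), of which 2577 (19.9%) rose and 2885 (22.2%) fell. In p53 shRNA 1 against vector 5283 genes (40.7%) were called, 2466 (19%) higher and 2817 (21.7%) lower. In p53 shRNA 2 against p53 shRNA 1 5038 genes (38.8%) were called, 2614 (20.1%) higher and 2424 (18.7%) lower. These comparisons share libraries, so their values are set side by side for each gene and list. Loss of p53 is common to both p53 hairpins, per the labels, and a hairpin as such is common to p53 shRNA 2 and scramble; how much each adds to a difference from vector was not tested.

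**Figure D2:**
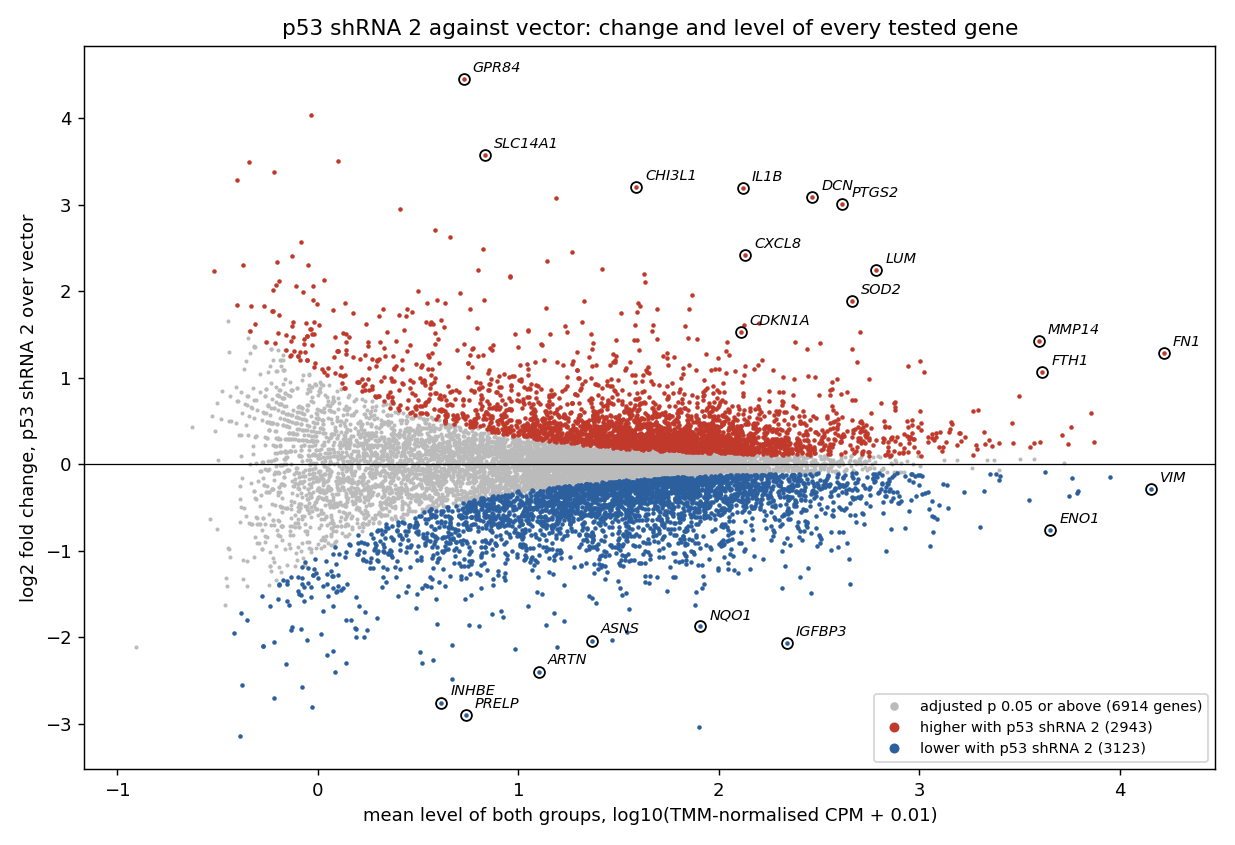
Log2 fold change of p53 shRNA 2 over vector (vertical axis) against the mean level, log10(CPM + 0.01) (horizontal axis), with 1 point per tested gene; red points (2943) were called higher, blue points (3123) lower, grey points not called. DCN, PTGS2, IL1B and CHI3L1 stand among the highest fold changes at their levels, and IGFBP3 and NQO1 among the lowest.

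Among the genes with the largest rise, GPR84, a receptor for medium-chain fatty acids, was at 10.4 and 9.997 CPM with p53 shRNA 2, against 0.504 and 0.413 CPM with vector (log2 fold change 4.46, SE 0.3, adjusted p 3.9e-17). Chitinase-like glycoprotein gene CHI3L1 was at 71.9 and 68.3 CPM with p53 shRNA 2 and 8.22 and 7.03 CPM with vector, a rise of 3.21 (adjusted p 3.4e-30). The urea transporter gene SLC14A1 was at 12.7 and 12.3 CPM with p53 shRNA 2 and 1.44 and 0.709 CPM with vector, a rise of 3.58 (adjusted p 4.4e-19). Both groups of libraries were far apart in each of these genes. PTGS2, which encodes the inducible cyclooxygenase of prostaglandin synthesis, was at 755 and 717 CPM with p53 shRNA 2, against 92.0 and 90.4 CPM with vector, a rise of 3.01 (SE 0.049, adjusted p 4.3e-41). MFSD2A, a transporter of lysophospholipids, rose by 2.35 (adjusted p 2.7e-20). The others of the 12 leading genes, IL1B, IL1A, CXCL8, DCN, EPYC, SERPINB2 and MMP9, belong to groups described below.

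These 5 genes also rose with p53 shRNA 1 and in scramble. Against the same vector libraries, GPR84 was 2.76 higher on the log2 scale with p53 shRNA 1 and 3.57 higher in scramble, CHI3L1 was 2.65 and 2.46 higher, and PTGS2 was 1.53 and 2.02 higher. SLC14A1 was 3.37 and 2.96 higher with p53 shRNA 1 and in scramble, and MFSD2A 1.58 and 2.36. The direct comparison with scramble gave a further rise with p53 shRNA 2 for PTGS2 (0.99, adjusted p 3.1e-23), GPR84 (0.89, adjusted p 0.00016), CHI3L1 (0.75, adjusted p 1.3e-11) and SLC14A1 (0.61, adjusted p 0.00065). For MFSD2A p53 shRNA 2 and scramble averaged 23.2 and 23.3 CPM (adjusted p 0.99).

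Among the genes with the largest fall, PRELP, a small leucine-rich matrix protein, was at 1.17 and 1.40 CPM with p53 shRNA 2, against 8.65 and 10.6 CPM with vector (log2 fold change -2.90, SE 0.24, adjusted p 3.7e-14). ARTN, the gene of artemin, a ligand of the GDNF family, was at 3.20 and 4.85 CPM with p53 shRNA 2 and 21.8 and 21.02 CPM with vector, and fell by 2.40 (adjusted p 1.3e-18). PAPPA2, a protease that cleaves insulin-like growth factor binding proteins, was at 6.33 and 5.44 CPM with p53 shRNA 2 and 25.4 and 25.3 CPM with vector, and fell by 2.11 (adjusted p 5.2e-19). IGFBP3, which encodes such a binding protein, was at 83.5 and 84.8 CPM with p53 shRNA 2 and 349 and 358 CPM with vector, and fell by 2.07 (SE 0.05, adjusted p 3.2e-34). In each of these genes both p53 shRNA 2 libraries lay below both vector libraries.

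The inhibin subunit gene INHBE (-2.76), the semaphorin gene SEMA5B (-2.49), the apelin gene APLN (-2.30), FAM46B (-2.26), the carboxypeptidase gene CPA4 (-2.17), the potassium channel subunit gene KCNS1 (-2.14) and the receptor kinase gene ROR1 (-2.09) follow; the values are log2 fold changes against vector. Set against scramble directly, INHBE (-1.62, adjusted p 3.3e-05), IGFBP3 (-1.19, adjusted p 3.1e-23), ROR1 (-1.12, adjusted p 0.00094), FAM46B (-1.17, adjusted p 0.0035) and PAPPA2 (-0.64, adjusted p 0.0011) were lower with p53 shRNA 2. ARTN (-0.11, adjusted p 0.74), PRELP (-0.20, adjusted p 0.73), KCNS1 (-0.01, adjusted p 0.98), SEMA5B (-0.53, adjusted p 0.2), CPA4 (-0.79, adjusted p 0.076) and APLN (0.37, adjusted p 0.55) did not pass that test. Apelin transcripts averaged 1.11 CPM with p53 shRNA 2 and, lower still, 0.383 CPM with p53 shRNA 1 (adjusted p 0.022).

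**Figure D3:**
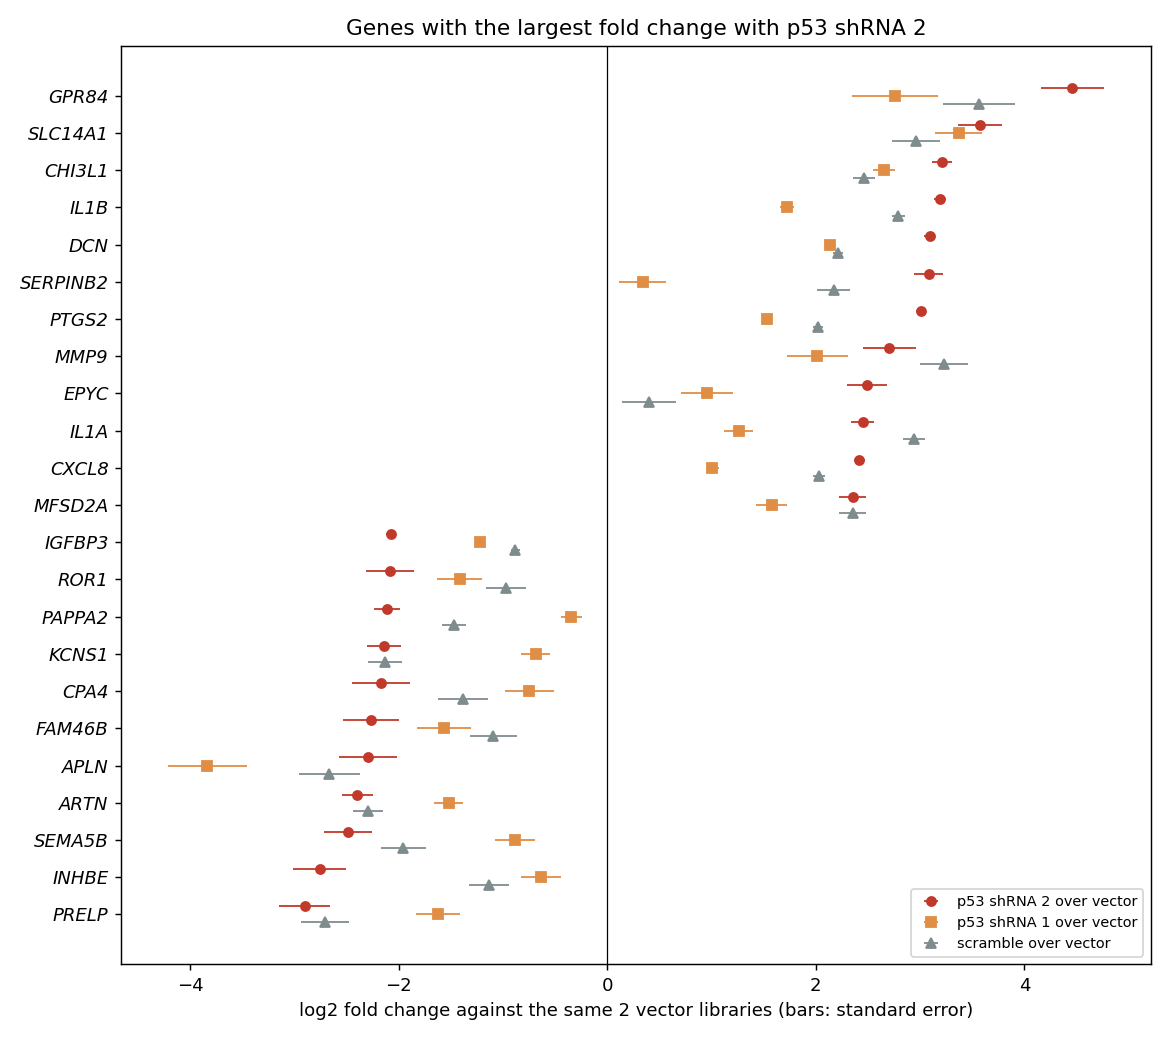
Log2 fold change against the same 2 vector libraries for genes among those with the largest fold changes with p53 shRNA 2 (points, with standard error bars), for p53 shRNA 2, p53 shRNA 1 and scramble. All the genes plotted have 1 sign in p53 shRNA 2, p53 shRNA 1 and scramble; SERPINB2 with p53 shRNA 1 and EPYC in scramble did not pass the test.

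Some genes were chosen by their difference in mean CPM, which grows with transcript length and so gives no ranking of transcripts. Of those that rose, FN1, the gene of the matrix protein fibronectin, was at 24072 and 23152 CPM with p53 shRNA 2, against 9538 and 9766 CPM with vector (log2 fold change 1.29, SE 0.034, adjusted p 1.1e-32). MMP14, a membrane-bound collagenase that activates the gelatinase MMP2, was at 5612 and 5842 CPM with p53 shRNA 2 and 2171 and 2108 CPM with vector (1.42, adjusted p 1.1e-32), and MMP2 at 3959 and 4012 CPM with p53 shRNA 2 and 2307 and 2308 CPM with vector (0.79, adjusted p 3.2e-23). FTH1, the ferritin heavy chain gene, was at 5409 and 5689.6 CPM with p53 shRNA 2 and 2683 and 2608 CPM with vector (1.07, adjusted p 1.2e-27). ACTG1, a cytoplasmic actin gene, rose by 0.59, and YAP1, a co-activator of the Hippo pathway, by 0.44. The call of YAP1 ended when all 12 libraries were fitted together, and neither YAP1 nor ACTG1 passed the test against a fold of 1.5. MMP14 and FTH1 rose against p53 shRNA 1 as well, by 1.30 and 0.93 (adjusted p 5.6e-30 and 1.6e-24), while MMP2 was at -0.05 against scramble (adjusted p 0.29). In scramble against vector FN1, MMP14 and FTH1 were also higher, by 0.88, 0.88 and 0.51. Against scramble FN1, MMP14 and FTH1 rose by 0.41, 0.55 and 0.56 with p53 shRNA 2 (adjusted p 6.3e-14, 1.2e-16 and 7.5e-17). FN1 was 1.13 higher with p53 shRNA 1 than with vector.

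In the other direction, VIM, the gene of the intermediate filament protein vimentin, was at 12861 and 12798 CPM with p53 shRNA 2, against 15634 and 15646 CPM with vector, and fell by 0.29 (adjusted p 7.4e-10). The glycolytic enzyme gene ENO1 was at 3246 and 3430.2 CPM with p53 shRNA 2 and 5708 and 5613 CPM with vector, and fell by 0.76 (adjusted p 1.3e-22). COL1A1 and COL6A3, which encode chains of collagens I and VI, fell by 0.36 and 0.31, TGFBI, a matrix protein induced by TGF-beta, by 0.41, and NDRG1, a hypoxia-inducible gene, by 0.73. The calls of VIM and COL6A3 ended when all 12 libraries were fitted together. VIM, COL6A3, COL1A1 and TGFBI did not pass the test against a fold of 1.5. Against scramble, ENO1 and NDRG1 were instead higher with p53 shRNA 2, by 0.38 and 0.78 (adjusted p 1e-11 and 1.1e-21), and scramble held the lower levels (means 2567 and 883 CPM).

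Textbook p53 target genes moved in both directions. Of 32 tested, 11 rose and 9 fell with p53 shRNA 2, with a median log2 fold change of 0.08 beside 0.005 over all tested genes. GDF15, a stress-induced cytokine, was at 44.3 and 42.1 CPM with p53 shRNA 2, against 8.79 and 9.21 CPM with vector (2.26, adjusted p 6.1e-24), and the receptor gene NOTCH1 at 200.03 and 201 CPM with p53 shRNA 2, against 63.9 and 67.0 CPM with vector (1.61, adjusted p 8.3e-28). PLK2, a polo-like kinase gene, was at 153 and 149.5 CPM with p53 shRNA 2 and 424 and 424 CPM with vector (-1.48, adjusted p 5.4e-30). In scramble against vector 9 of the 32 rose and 9 fell.

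Cytokine genes rose broadly. Of 17 tested interleukins and other cytokines, 11 rose and 2 fell, with a median of 0.95. IL1B, the gene of the secreted interleukin 1 beta, was at 236 and 239 CPM with p53 shRNA 2, against 28.0 and 24.3 CPM with vector (log2 fold change 3.19, SE 0.062, adjusted p 4e-38). IL1A, its paralogue, was at 31.0 and 31.5 CPM with p53 shRNA 2 and 5.33 and 6.02 CPM with vector (2.45, adjusted p 3.1e-23). IL24 was at 79.5 and 72.8 CPM with p53 shRNA 2 and 22.6 and 21.3 CPM with vector (1.80, adjusted p 7e-25), and IL11, a cytokine of the IL6 family, at 66.7 and 75.0 CPM with p53 shRNA 2 and 21.98 and 24.2 CPM with vector (1.61, adjusted p 1.4e-22). The members that fell were IL15 (-0.42) and IL18 (-0.41).

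Scramble showed most of this rise too, with 11 of the 17 cytokines higher than vector and a median of 1.18. Against scramble 3 rose and 6 fell with p53 shRNA 2, with a median of -0.27. IL1B was 0.40 higher with p53 shRNA 2 than in scramble (adjusted p 6.2e-09), while IL1A and IL24 fell by 0.49 and 0.76 against it (adjusted p 2.8e-06 and 1.5e-14). CSF1, the growth factor of macrophages, behaved otherwise. It was at 483 and 487 CPM with p53 shRNA 2, against 249 and 251 CPM with vector, a rise of 0.95 (SE 0.043, adjusted p 2.1e-23). With p53 shRNA 1 CSF1 was at 236 and 227 CPM and in scramble at 255 and 242 CPM, so it was higher with p53 shRNA 2 than in any other library of the 8, by 0.96 against scramble and 1.06 against p53 shRNA 1 (adjusted p 1.2e-22 and 3.9e-24).

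Of 7 tested chemokine genes 6 rose, with a median of 1.27. CXCL8, which encodes the neutrophil attractant interleukin 8, was at 228 and 227 CPM with p53 shRNA 2, against 41.4 and 43.5 CPM with vector (2.42, SE 0.055, adjusted p 2.7e-35). CXCL5 was at 75.1 and 74.2 CPM with p53 shRNA 2 and 30.1 and 32.5 CPM with vector (1.25, adjusted p 1.5e-20), and CXCL1 at 17.3 and 20.1 CPM with p53 shRNA 2 and 7.06 and 7.20 CPM with vector (1.39, adjusted p 3.1e-13). CXCL3 (1.27) and CXCL2 (0.99), near-identical relatives of CXCL1 among which reads can be split uncertainly, rose as well. In scramble against vector 6 of the 7 also rose. Against scramble CXCL8 was 0.39 higher with p53 shRNA 2 (adjusted p 4.6e-09) and CXCL5 fell by 0.25 (adjusted p 0.00074).

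These chemokine promoters hold letters that match binding patterns of NF-kB, the transcription factor family of inflammatory signalling, shortly before the start of transcription. The 250 bases before the start of the 3 chemokine genes with the smallest adjusted p are shown because they rose together; capitals mark matches, on either strand, to GGGNNTTCC or GGNNTTTCC, 2 patterns that can overlap, and both sequence and coordinates are from RefSeq on GRCh38.p14.
CXCL8, chr4:73740319-73740568, plus strand: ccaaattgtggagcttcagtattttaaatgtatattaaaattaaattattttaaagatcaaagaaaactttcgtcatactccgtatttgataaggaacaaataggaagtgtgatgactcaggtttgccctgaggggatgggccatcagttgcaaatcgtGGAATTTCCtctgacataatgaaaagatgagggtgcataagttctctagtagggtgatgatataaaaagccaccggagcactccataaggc
CXCL5, chr4:73998678-73998927, minus strand: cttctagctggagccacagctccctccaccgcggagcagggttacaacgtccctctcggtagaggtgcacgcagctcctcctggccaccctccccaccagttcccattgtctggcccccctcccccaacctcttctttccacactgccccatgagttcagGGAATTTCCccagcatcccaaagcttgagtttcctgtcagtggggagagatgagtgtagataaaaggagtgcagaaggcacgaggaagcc
CXCL1, chr4:73869143-73869392, plus strand: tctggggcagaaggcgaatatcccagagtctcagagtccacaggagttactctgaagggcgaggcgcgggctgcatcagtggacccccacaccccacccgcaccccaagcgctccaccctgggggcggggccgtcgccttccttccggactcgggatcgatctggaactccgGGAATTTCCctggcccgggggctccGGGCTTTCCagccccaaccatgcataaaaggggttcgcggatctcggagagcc
The second pattern starts 91 bases before the start of CXCL8 and 90 before that of CXCL5, with the same letters in both, and CXCL1 holds it 2 times. Of the 6 tested chemokine genes with a promoter in the table, 4 (66.7%) held GGGNNTTCC in this window. CXCL8 and CXCL5 were not among them. GGGNNTTCC was held by 7.27% of the 9586 tested genes with a promoter there and 5.78% of all 35116 promoters. GGNNTTTCC was held by 6 (100%) of the chemokine genes, and by 5.98% and 5.48% of those larger sets. The second pattern was chosen after these promoters had been read, so its share among them cannot be weighed against the others. A match is a description of letters and not of binding.

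NF-kB subunits, feedback inhibitors and targets followed the cytokines. Of 26 tested, 23 rose and 1 fell, with a median of 0.56; the member that fell was TNFRSF9 (-0.50). SOD2, the mitochondrial superoxide dismutase gene, was at 728 and 726 CPM with p53 shRNA 2, against 199 and 193 CPM with vector (1.89, SE 0.043, adjusted p 3.4e-35). BIRC3, an inhibitor of apoptosis, was at 1474 and 1394 CPM with p53 shRNA 2 and 673 and 696 CPM with vector (1.07, adjusted p 3e-26), and TNFAIP3, the feedback inhibitor A20, at 164 and 155 CPM with p53 shRNA 2 and 64.9 and 67.3 CPM with vector (1.27, adjusted p 1.4e-24). IER3 rose by 1.01 and NFKB2, the subunit gene of the non-canonical pathway, by 0.74. With p53 shRNA 1 against vector 13 members rose and the median was 0.17, and in scramble against vector 24 rose and the median was 0.67. Against scramble, 8 rose and 5 fell with p53 shRNA 2, with a median of 0.02.

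**Figure D4:**
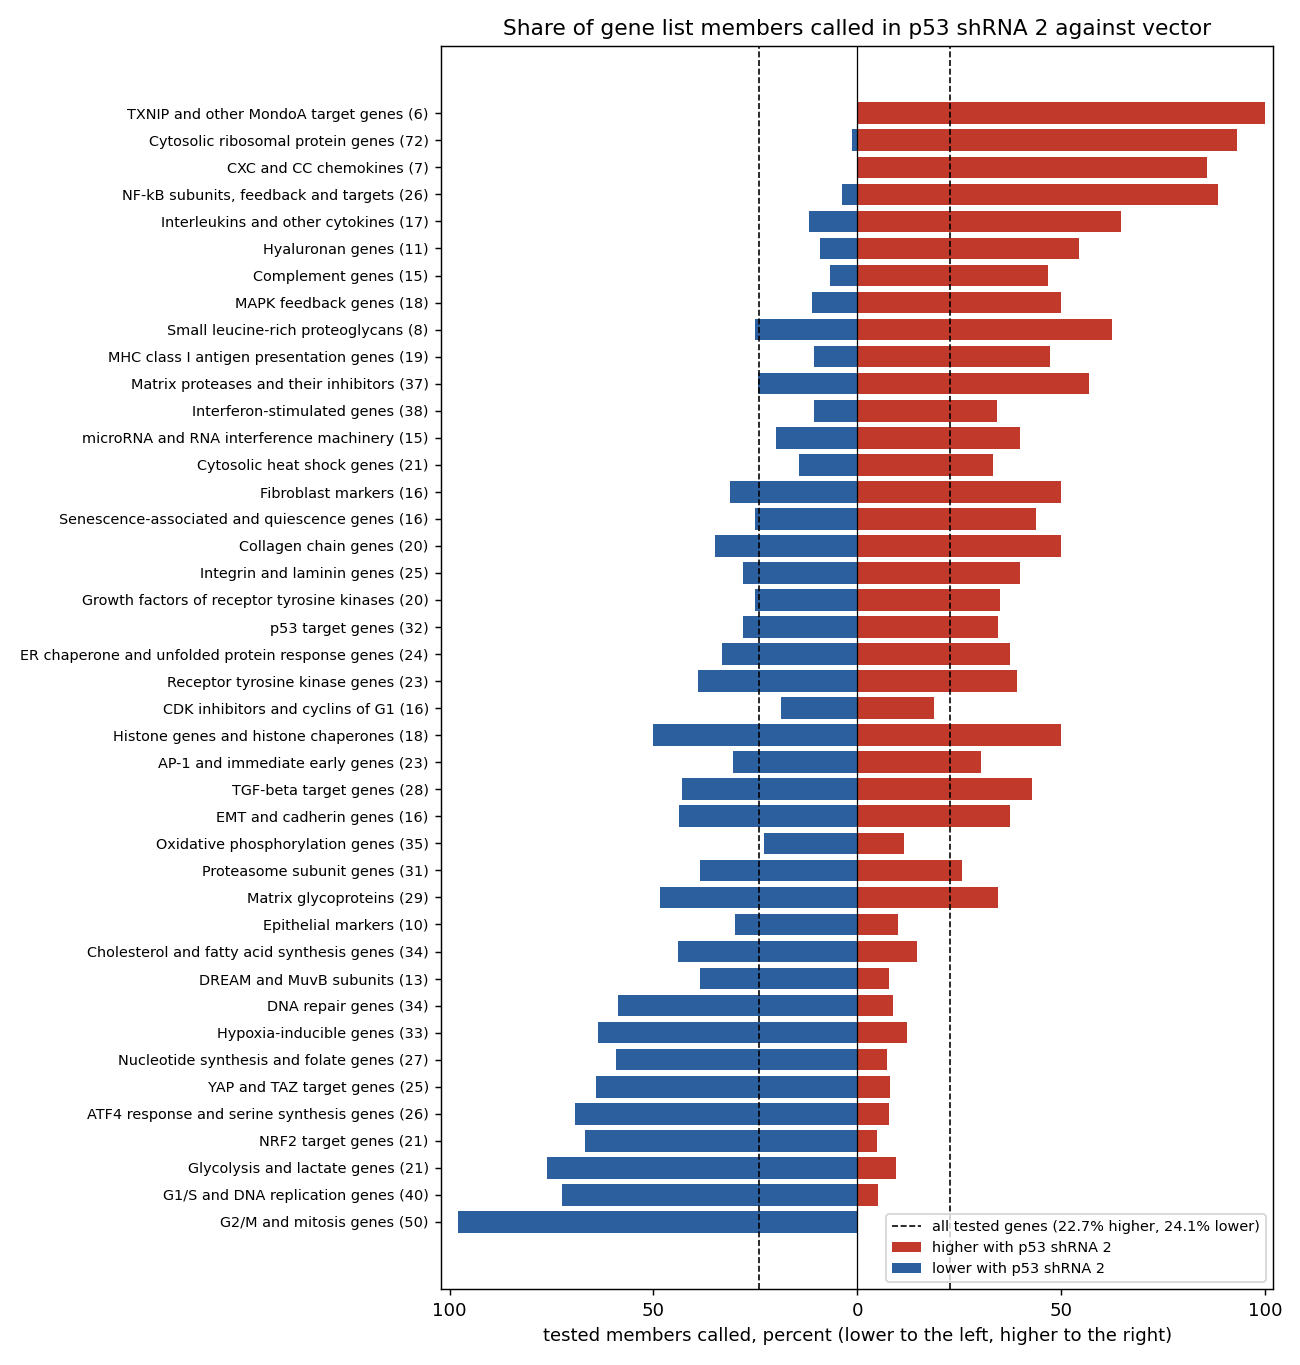
Share of the tested members of each gene list with at least 5 tested members (number tested in parentheses) called higher (red, to the right) or lower (blue, to the left) with p53 shRNA 2 than with vector; dashed lines mark the shares over all tested genes, 22.7% higher and 24.1% lower. Chemokine, NF-kB, ribosomal protein and TXNIP-related genes lie furthest to the higher side, and G2/M, G1/S, glycolysis and ATF4 response genes furthest to the lower side.

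Cell cycle genes were lower with p53 shRNA 2. Of 50 tested genes of G2 and mitosis, 49 fell, with a median of -0.99 on the log2 scale. The other one, SPC25, named after its value was seen, was at -0.17 (adjusted p 0.5). ANLN, a scaffold protein of the contractile ring, was at 173 and 164 CPM with p53 shRNA 2, against 378 and 395 CPM with vector (-1.20, SE 0.047, adjusted p 1.2e-25). The mitotic kinase genes AURKB and PLK1 were at 46.7 and 46.6 and at 67.1 and 66.8 CPM with p53 shRNA 2, against 124 and 118 and 157 and 152 CPM with vector (-1.38 and -1.21, adjusted p 2.3e-24 and 1.4e-23). TPX2, a spindle assembly factor, fell by 1.18 and TOP2A, the topoisomerase of dividing cells, by 0.99. In all 5 the 2 vector libraries were the highest of the 8 and the 2 p53 shRNA 2 libraries the lowest.

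The fall of mitotic genes was seen with every hairpin, by unequal amounts. Against vector 48 of the 50 fell with p53 shRNA 1 (median -0.65) and 50 fell in scramble (median -0.72). In direct comparison 37 were lower with p53 shRNA 2 than in scramble and 2 higher (median -0.28), and 39 were lower than with p53 shRNA 1 (median -0.33). AURKB fell by 0.47 against scramble (adjusted p 7.4e-08) and PLK1 by 0.42 (adjusted p 1.2e-07).

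Of the 42 tested G2 and mitosis genes with a promoter in the table, 23 (54.8%) held the CHR element TTTGAA in the 250 bases before the start, against 8.27% of the 9586 tested genes with a promoter and 13.3% of all 35116. The CCAAT box was held by 34 (81.0%), against 35.1% and 32.0%. Both were searched on either strand. All tested members with a promoter were counted, whatever their change, so these shares describe the list. Whether either element has a part in the fall was not tested. The promoters of ANLN, AURKB and PLK1, the 3 members of smallest adjusted p next to TPX2, follow, with matches to either element in capitals. The CHR element is a site of DREAM and its relatives, and the CCAAT box is not. The sequences are from RefSeq on GRCh38.p14.
ANLN, chr7:36389612-36389861, plus strand: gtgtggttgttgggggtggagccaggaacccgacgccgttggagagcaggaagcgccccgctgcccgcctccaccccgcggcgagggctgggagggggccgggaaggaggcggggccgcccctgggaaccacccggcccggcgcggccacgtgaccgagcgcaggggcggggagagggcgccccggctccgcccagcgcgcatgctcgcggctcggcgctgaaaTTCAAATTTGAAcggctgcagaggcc
AURKB, chr17:8210226-8210475, minus strand: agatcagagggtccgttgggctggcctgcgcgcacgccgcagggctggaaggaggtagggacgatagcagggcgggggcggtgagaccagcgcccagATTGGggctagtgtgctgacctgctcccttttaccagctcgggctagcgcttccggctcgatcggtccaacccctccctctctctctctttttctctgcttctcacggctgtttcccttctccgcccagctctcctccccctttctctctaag
PLK1, chr16:23678639-23678888, plus strand: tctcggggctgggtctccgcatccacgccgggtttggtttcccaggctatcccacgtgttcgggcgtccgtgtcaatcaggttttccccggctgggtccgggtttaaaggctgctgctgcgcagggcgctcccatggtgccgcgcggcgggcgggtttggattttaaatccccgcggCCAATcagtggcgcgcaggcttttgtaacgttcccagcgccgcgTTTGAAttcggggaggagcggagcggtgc
ANLN holds 2 adjoining CHR elements, 1 on each strand, and no CCAAT in this window. PLK1 holds a CHR element that starts 29 bases before the start and a CCAAT box 73 bases before it. The AURKB window holds a CCAAT box and not the letters TTTGAA, from which nothing follows about binding.

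Genes of DNA replication and repair fell less evenly. Of 40 tested genes of G1/S and replication 2 rose and 29 fell (median -0.55); those that rose were the helicase subunit genes MCM4 (0.26) and MCM6 (0.22); MCM6 was not called with DESeq2 or with all 12 libraries fitted together, nor without p53 shRNA 2 library 1 or either vector library. TIMELESS, a protein of the replication fork, was at 42.3 and 46.4 CPM with p53 shRNA 2, against 93.3 and 89.7 CPM with vector (-1.04, adjusted p 9.9e-19). The licensing factor gene CDT1 fell by 0.77, the helicase subunit genes MCM5 and MCM2 by 0.99 and 0.67, and the origin recognition gene ORC1 by 1.03. Of 34 DNA repair genes 3 rose and 20 fell (median -0.51), with FANCD2 of the Fanconi pathway at 8.13 and 6.03 CPM with p53 shRNA 2 and 15.7 and 17.0 CPM with vector (-1.22, adjusted p 2.4e-10), and ATM (0.41), MSH6 (0.24) and RAD50 (0.19) among those that rose; these 3 calls ended with all 12 libraries fitted together. Of 27 genes of nucleotide and folate metabolism 2 rose and 16 fell (median -0.22). Leaving out any 1 of the 4 libraries compared left at most 1 nucleotide gene that rose and ended the call of RAD50 in 1 case, without p53 shRNA 2 library 1. The thymidine kinase gene TK1 was at 40.0 and 41.5 CPM with p53 shRNA 2 and 116 and 110.3 CPM with vector (-1.47, adjusted p 1.7e-24). TK1 was at -1.35 in scramble against vector, and at -0.13 with p53 shRNA 2 against scramble (adjusted p 0.18). In scramble against vector 3 of the 27 nucleotide and folate genes rose and 16 fell (median -0.30). Against scramble 6 of them rose and 4 fell with p53 shRNA 2 (median -0.03).

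The replication genes stood differently against scramble. There, 9 of the 40 G1/S genes rose and 1 fell with p53 shRNA 2 (median 0.15), and 5 of the 34 repair genes rose and 4 fell (median 0.09). CDT1 was 0.44 higher than in scramble (adjusted p 1.2e-06), and TIMELESS was at 0.13 (adjusted p 0.18). Compared with p53 shRNA 1, 18 G1/S genes were lower and 2 higher. Among 16 CDK inhibitors and G1 cyclins, 3 rose and 3 fell (median 0.00). CDKN1A and the cyclin D1 gene CCND1 (0.56) were among those that rose, and the inhibitor genes CDKN2C (-0.90) and CDKN3 (-1.07) among those that fell. CCND1 averaged 351 CPM with p53 shRNA 2 and, higher still, 447 CPM in scramble (adjusted p 4.3e-09). Of 13 tested DREAM and MuvB genes 1 rose, RBBP4 (0.24), and 5 fell (median -0.14), among them FOXM1 (-1.11), MYBL2 (-0.83) and E2F5 (-0.96). E2F5 was at 14.2 and 18.1 CPM with p53 shRNA 2, against 31.0 and 33.1 CPM with p53 shRNA 1, 30.5 and 31.3 CPM in scramble and 31.8 and 31.4 CPM with vector.

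**Figure D5:**
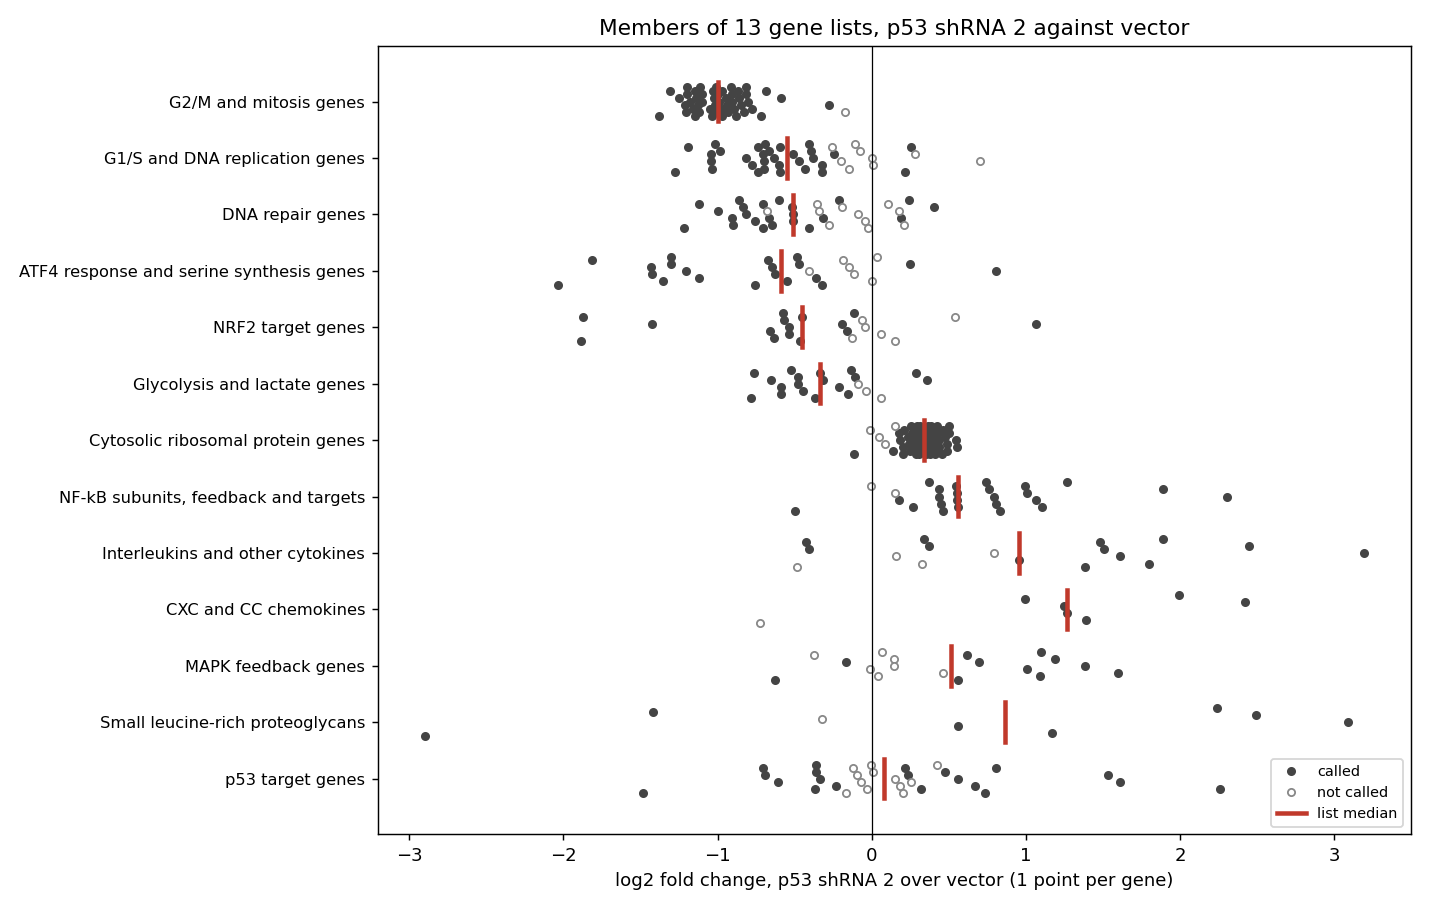
Log2 fold change of p53 shRNA 2 over vector for each tested member of 13 gene lists (horizontal axis; 1 point per gene, filled where called, and a red bar at the list median). All 50 G2/M genes lie below 0 and nearly all ribosomal protein genes slightly above it, while p53 target genes lie on both sides.

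Matrix genes changed in both directions. DCN, the gene of decorin, a small leucine-rich proteoglycan that binds collagen fibrils, was at 513 and 534 CPM with p53 shRNA 2, against 63.3 and 59.7 CPM with vector (log2 fold change 3.09, SE 0.051, adjusted p 4.3e-41). It was at 273 and 266 CPM with p53 shRNA 1 and 289.8 and 280.4 CPM in scramble, so all hairpins stood above vector and p53 shRNA 2 above the others, by 0.88 against scramble and 0.96 against p53 shRNA 1 (adjusted p 2.4e-21 and 1.8e-22). LUM, the gene of lumican, a proteoglycan of the same family, was at 1019.6 and 993 CPM with p53 shRNA 2 and 212 and 214 CPM with vector (2.24, adjusted p 2e-38), and it too was higher than in scramble (0.81, adjusted p 1.6e-21). EPYC, the gene of epiphycan, was at 11.7 and 11.03 CPM with p53 shRNA 2, against 1.80 and 2.18 CPM with vector (2.49, adjusted p 2.1e-15). In scramble EPYC did not pass the test against vector (0.40, adjusted p 0.22), and p53 shRNA 2 was 2.09 above scramble (adjusted p 8.5e-13). Of 8 tested genes of this family 5 rose and 2 fell, PRELP and PODN (-1.42), with a median of 0.87. In scramble against vector 4 rose and 2 fell (median 0.77). Against scramble 3 rose with p53 shRNA 2, DCN, LUM and EPYC, and 0 fell (median -0.14).

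Collagen chain genes split, with 10 of 20 higher and 7 lower (median 0.18). COL3A1, the collagen III gene, was at 2249.8 and 2230.4 CPM with p53 shRNA 2, against 1451 and 1478 CPM with vector (0.61, adjusted p 3.9e-19), while COL4A2, a basement membrane collagen, was at 71.9 and 74.8 CPM with p53 shRNA 2 and 141 and 137 CPM with vector (-0.92, adjusted p 1e-18). COL3A1 was highest with p53 shRNA 1 (mean 3568 CPM), and COL4A2 was lower with p53 shRNA 2 than in scramble (-1.23, adjusted p 1.3e-22). Of 29 matrix glycoprotein genes 10 rose and 14 fell (median -0.07). MATN2, a matrilin gene, was at 11.6 and 11.5 CPM with p53 shRNA 2, against 47.7 and 46.9 CPM with vector (-2.03, adjusted p 1.4e-23), and it was lower than with p53 shRNA 1 (-1.79, adjusted p 6.9e-20) and than in scramble (-1.39, adjusted p 1.1e-15). EFEMP1, the fibulin-3 gene, was at 51.4 and 50.6 CPM with p53 shRNA 2, 149 and 145 CPM with p53 shRNA 1, 114 and 110.5 CPM in scramble and 114 and 115 CPM with vector. The fall with p53 shRNA 2 (-1.17, adjusted p 3.3e-22) stood beside a rise with p53 shRNA 1 (0.36, adjusted p 1.4e-07). LTBP3, which binds latent TGF-beta, rose by 1.06, and it was at 1.08 in scramble against vector.

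Matrix proteases and their inhibitors rose more often than they fell, 21 against 9 of 37 tested (median 0.33). SERPINB2, an inhibitor of plasminogen activators, was at 26.8 and 28.7 CPM with p53 shRNA 2, against 2.59 and 3.84 CPM with vector (3.08, SE 0.14, adjusted p 3e-23). With p53 shRNA 1 it was at 4.12 and 4.17 CPM and in scramble at 13.7 and 15.8 CPM, so the log2 difference between p53 shRNA 2 and p53 shRNA 1 was 2.74 (adjusted p 4.5e-20). MMP9, the gelatinase B gene, was at 6.41 and 6.84 CPM with p53 shRNA 2 and 1.23 and 0.827 CPM with vector (2.71, adjusted p 1.3e-12); scramble was higher, at 8.67 and 10.3 CPM. SERPINE2, another serpin of the plasminogen system, rose by 1.08 and PLAUR, the urokinase receptor gene, which is often counted among NF-kB and AP-1 targets, was at 172 and 173 CPM with p53 shRNA 2 and 90.6 and 88.0 CPM with vector (0.95, adjusted p 5.1e-21). In scramble against vector 14 of the 37 rose and 5 fell, and in p53 shRNA 2 against scramble 13 rose and 10 fell.

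Of 11 hyaluronan genes 6 rose and 1 fell (median 0.22). HAS2, the main hyaluronan synthase of mesenchymal cells, was at 243 and 236 CPM with p53 shRNA 2, against 76.2 and 78.1 CPM with vector (1.64, adjusted p 1.6e-29), and rose against scramble too (0.76, adjusted p 2.1e-17). TNFAIP6, a hyaluronan-binding protein induced by inflammation, rose by 1.58. HMMR, a hyaluronan-binding protein that also serves the mitotic spindle, fell by 1.03. CEMIP, which takes part in hyaluronan breakdown, was at 98.4 and 94.2 CPM with p53 shRNA 2, 32.7 and 32.9 CPM with p53 shRNA 1, 145 and 144 CPM in scramble and 57.9 and 60.2 CPM with vector. It rose with p53 shRNA 2 (0.70, adjusted p 1.9e-14) and fell with p53 shRNA 1 (-0.85, adjusted p 8.2e-14). TMEM2, another gene of hyaluronan breakdown, also went opposite ways, 0.70 with p53 shRNA 2 and -0.26 with p53 shRNA 1. Of 25 integrin and laminin genes 10 rose and 7 fell (median -0.12), with the collagen receptor subunit genes ITGA11 (1.20) and ITGA2 (1.44) among those that rose and ITGA4 (-1.10) among those that fell. In scramble against vector ITGA11 was at 1.15, ITGA2 at 1.05 and ITGA4 at -0.15. Against scramble ITGA11 was at 0.05 with p53 shRNA 2 (adjusted p 0.44) and ITGA2 at 0.38 (adjusted p 3.9e-05). ITGA4 was lower with p53 shRNA 2 than in scramble (-0.95, adjusted p 3.9e-13).

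Metabolic gene groups were mostly lower. Genes of the ATF4 response, which supplies amino acids under stress, and of serine synthesis fell in 18 of 26 cases and rose in 2, CEBPB (0.81) and DDIT4 (0.25, not called with all 12 libraries fitted together), with a median of -0.59. PHGDH, the first enzyme of serine synthesis, was at 109.6 and 115 CPM with p53 shRNA 2, against 302 and 302 CPM with vector (-1.43, SE 0.048, adjusted p 1.6e-28). ASNS, asparagine synthetase, was at 8.60 and 9.56 CPM with p53 shRNA 2 and 39.0 and 35.9 CPM with vector (-2.04, adjusted p 3.6e-21), and MTHFD2, a mitochondrial folate enzyme, fell by 1.21. STC2 (-1.30) and TRIB3 (-1.36) fell with them. Scramble fell in 22 members against vector (median -0.52), and against scramble 7 rose and 9 fell with p53 shRNA 2 (median -0.07). ASNS and MTHFD2 were lower than in scramble (-1.12 and -0.69, adjusted p 2.4e-10 and 2.4e-14), and TRIB3 was at 0.03 (adjusted p 0.85).

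Targets of NRF2, the regulator of antioxidant defence, fell in 14 of 21 cases and rose in 1, FTH1 (2 without vector library 1), with a median of -0.45. NQO1, a quinone reductase gene, was at 34.7 and 34.4 CPM with p53 shRNA 2, against 129 and 124 CPM with vector (-1.87, SE 0.062, adjusted p 8.7e-29). With p53 shRNA 1 NQO1 was at 61.7 and 62.7 CPM and in scramble at 62.7 and 62.6 CPM, and p53 shRNA 2 lay below both (-0.85 and -0.86, adjusted p 7.1e-14 and 2.4e-14). SLC7A11, the cystine importer gene, which is also in the ATF4 list, was at 18.1 and 17.0 CPM with p53 shRNA 2 and 43.7 and 50.3 CPM with vector (-1.43, adjusted p 5.7e-18). TXNRD1, thioredoxin reductase, fell by 0.66 and TALDO1, a pentose phosphate enzyme, by 0.58.

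Glycolysis and lactate genes fell in 16 of 21 cases (median -0.34), and the transporter genes SLC16A3 (0.36) and SLC2A3 (0.29) rose, SLC16A3 without a call when all 12 libraries were fitted together. SLC2A1, a glucose transporter gene, was at 266 and 271 CPM with p53 shRNA 2, against 468 and 455 CPM with vector (-0.78, adjusted p 3.3e-19), and LDHA, lactate dehydrogenase A, at 1041 and 1059 CPM with p53 shRNA 2 and 1464 and 1455 CPM with vector (-0.48, adjusted p 1.1e-14). GPI fell by 0.59 and PGK1 by 0.59. Hypoxia-inducible genes, which share members with this list, rose in 4 of 33 cases and fell in 21 (median -0.26). VEGFA, the angiogenic factor, was an exception to that fall: it was at 654 and 671 CPM with p53 shRNA 2 and 263 and 262 CPM with vector (1.34, adjusted p 1.3e-29). The direction of both groups turned round against scramble, where 18 of the 21 glycolysis genes rose and 1 fell with p53 shRNA 2 (median 0.37), and 22 of the 33 hypoxia-inducible genes rose and 3 fell (median 0.45). PGK1 was 0.77 higher than in scramble and LDHA 0.50 higher (adjusted p 4e-19 and 1e-14).

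The transcription factor MondoA, with its partner MLX, switches on TXNIP and some other genes when glucose metabolites are plentiful. In the list of these targets, which also holds MLXIP (0.29), the gene of MondoA, and MLX (0.26), 6 of 6 tested members rose (median 0.78). MLX was not called without vector library 1 or with all 12 libraries fitted together. TXNIP, an inhibitor of glucose uptake, was at 1211 and 1204 CPM with p53 shRNA 2, against 544 and 557 CPM with vector (1.13, SE 0.04, adjusted p 1.4e-27). Scramble was at 609 and 622 CPM, 0.16 above vector on the log2 scale, and p53 shRNA 1 at 945 and 896 CPM, so that p53 shRNA 2 exceeded scramble by 0.97 (adjusted p 3.2e-24) and p53 shRNA 1 by 0.39 (adjusted p 2.6e-11). Its relative ARRDC3 rose by 0.82, and KLF10, a transcription factor gene also induced by TGF-beta, by 0.74. KLF10 was at -0.04 in scramble against vector (adjusted p 0.65), and ARRDC3 at 0.32. Of the 6 members, 5 rose in scramble against vector (median 0.22). Against scramble 3 rose and 0 fell with p53 shRNA 2 (median 0.31).

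Of 34 genes of cholesterol and fatty acid synthesis 5 rose and 15 fell (median -0.21). DHCR7, which catalyses the last step of a route of cholesterol synthesis, was at 19.5 and 20.4 CPM with p53 shRNA 2, against 37.6 and 39.8 CPM with vector (-0.96, adjusted p 1.8e-13). Without p53 shRNA 2 library 1 or vector library 1 the number that rose was 3. ACACA, acetyl-CoA carboxylase, fell by 0.82 and SCD, a fatty acid desaturase, by 0.50. Against scramble 19 members of this list were lower with p53 shRNA 2 (median -0.25), and against p53 shRNA 1 2 higher and 18 lower (median -0.22). In scramble against vector 13 rose and 7 fell. DHCR7 was at 39.0 and 39.7 CPM with p53 shRNA 1 and 37.5 and 38.5 CPM in scramble, so that the low libraries were those of p53 shRNA 2 alone among the 8.

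Feedback genes of the MAPK pathway, whose transcripts follow ERK activity, rose in 9 of 18 cases and fell in 2, DUSP14 (-0.63) and ETV5 (-0.17), with a median of 0.51. ETV5 was not called with all 12 libraries fitted together, nor without p53 shRNA 2 library 1 or either vector library. The ERK phosphatase gene DUSP6 was at 99.8 and 105 CPM with p53 shRNA 2, against 35.1 and 32.7 CPM with vector (1.60, SE 0.064, adjusted p 1.3e-25). PHLDA1 was at 1422 and 1397 CPM with p53 shRNA 2 and 604 and 631 CPM with vector (1.19, adjusted p 9.9e-29), and the pathway inhibitor gene SPRY4 at 18.0 and 19.9 CPM with p53 shRNA 2 and 7.35 and 7.20 CPM with vector (1.38, adjusted p 2.7e-13). SPRY4 was at 0.12 with p53 shRNA 1 against vector (adjusted p 0.56) and 1.05 in scramble. DUSP6 and PHLDA1 were at 1.10 and 0.87 in scramble against vector. Of the 18 genes, 11 rose and 1 fell in scramble against vector (median 0.40). Against scramble 7 rose and 3 fell with p53 shRNA 2 (median 0.14). Of 23 receptor tyrosine kinase genes 9 rose and 9 fell (median 0.03), and among them PDGFRB rose by 1.09 and AXL fell by 0.74. Of 20 growth factor genes of these receptors 7 rose and 5 fell (median 0.13), or 3 that fell without vector library 2. FGF7 was at 65.4 and 61.2 CPM with p53 shRNA 2 and 15.6 and 19.8 CPM with vector (1.83, adjusted p 2.1e-23), and NRG1, the neuregulin gene, fell by 1.16. In scramble against vector FGF7 was at 1.76, NRG1 at -1.04, PDGFRB at 0.82 and AXL at -0.71. With p53 shRNA 2 against scramble FGF7 was at 0.07 (adjusted p 0.49) and AXL at -0.03 (adjusted p 0.69). PDGFRB was 0.26 higher with p53 shRNA 2 than in scramble (adjusted p 9.3e-06).

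Target genes of the co-activators YAP and TAZ fell in 16 of 25 cases and rose in 2, YAP1 itself and AMOTL1 (0.51), with a median of -0.31. CYR61 and CTGF, matricellular protein genes often used to read the pathway, were at 757 and 782 and at 78.5 and 79.4 CPM with p53 shRNA 2, against 1494 and 1478 and 128 and 133 CPM with vector (-0.95 and -0.72, adjusted p 3.2e-25 and 5.7e-15). CRIM1 fell by 0.997 and GADD45B by 1.07. With either p53 shRNA 1 or either scramble library left out of the fit, 5 rose. In scramble against vector 15 fell and 5 rose (median -0.36), and CYR61 was lower with p53 shRNA 2 than in scramble (-0.38, adjusted p 3.6e-11) but higher than with p53 shRNA 1 (0.27, adjusted p 1.9e-07).

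Cytosolic ribosomal protein genes rose by a small and even amount: 67 of 72 rose and 1, RPSA (-0.12), fell, with a median of 0.34. RPS6 was at 1643 and 1734 CPM with p53 shRNA 2, against 1232 and 1180.0 CPM with vector (0.49, adjusted p 5.1e-14). With p53 shRNA 1 and in scramble 65 and 64 members rose against vector (medians 0.35 and 0.27), and the median of p53 shRNA 2 against scramble was 0.09. RPSA was not called with all 12 libraries fitted together, nor without p53 shRNA 2 library 1 or either vector library. Reads of these genes can be shared with their processed pseudogenes, so single values are uncertain.

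In the other lists some members rose and some fell. The share called was 34.3% for oxidative phosphorylation genes, below the 46.7% over all tested genes, and 47.6% for heat shock genes, near it. For the other lists of this paragraph it was 60.0% to 85.7%. With p53 shRNA 2 against vector, 4 oxidative phosphorylation genes rose and 8 fell of 35 (median -0.03), 8 proteasome genes rose and 12 fell of 31 (median -0.06), and 9 unfolded protein response genes rose and 8 fell of 24 (median 0.05). Leaving out any 1 of the 4 libraries compared gave 2 to 5 proteasome genes that rose and 7 to 10 that fell, and 2 to 8 oxidative phosphorylation genes that fell. Immediate early genes rose in 7 and fell in 7 of 23 cases (median 0.02); EGR1, which follows growth factor signals, was at 155 and 156 CPM with p53 shRNA 2, against 61.5 and 58.1 CPM with p53 shRNA 1, 124 and 119 CPM in scramble and 63.0 and 62.5 CPM with vector. TGF-beta targets rose in 12 and fell in 12 of 28 (median 0.11), and genes of epithelial-mesenchymal transition in 6 and 7 of 16 (median 0.34). Heat shock genes rose in 7 and fell in 3 of 21 (median 0.09), with HSPA8 at 1.18 and HSP90AA1 at -0.59. Senescence-associated genes rose in 7 and fell in 4 of 16 (median 0.06), and genes of the RNA interference machinery, on which hairpins depend, in 6 and 3 of 15 (median 0.02). Without p53 shRNA 2 library 1 or vector library 2 the number of RNA interference genes that fell was 1. DGCR8, a subunit of the complex that cuts primary microRNAs, was at 20.6 and 21.8 CPM with p53 shRNA 2, against 11.7 and 11.9 CPM with vector (0.85, adjusted p 1.1e-08).

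Among immune genes, 13 of 38 interferon-stimulated genes rose and 4 fell (median 0.12). Without either p53 shRNA 2 library or vector library 1 the number that fell was 1 or 2. IFI44L was at 27.8 and 23.4 CPM with p53 shRNA 2, against 30.6 and 26.3 CPM with p53 shRNA 1, 29.6 and 32.6 CPM in scramble and 10.7 and 11.99 CPM with vector, so vector was the low group (1.16 against vector, adjusted p 2e-12). Of 19 genes of MHC class I presentation 9 rose and 2 fell (median 0.09), with HLA-E at 0.43 and CALR at -0.60. Of 15 complement genes 7 rose and 1, CLU (-1.30), fell (median 0.17). In scramble against vector 8 of them rose and 0 fell, and against scramble 0 rose and 6 fell with p53 shRNA 2. The protease gene C1S was at 109.9 and 117 CPM with p53 shRNA 2 and 44.7 and 38.6 CPM with vector (1.46, adjusted p 5.4e-24). It was at 1.32 in scramble against vector, and at 0.14 with p53 shRNA 2 against scramble (adjusted p 0.057). Of 18 histone and chaperone genes 9 rose and 9 fell (median -0.11), and HIST1H2BK, a histone gene whose transcript can be polyadenylated, was at 62.9 and 57.7 CPM with p53 shRNA 2 and 17.0 and 18.5 CPM with vector (1.76, adjusted p 3.3e-23). HMGA2, a chromatin protein of growing mesenchymal cells, rose by 1.41, and scramble by 1.40.

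EPCAM, CDH1, KRT19, KRT20 and TFF1 of epithelial cells, PTPRC and CD3E of leukocytes and CDH5 of endothelial cells were at or near 0. Other markers of these cell types were counted, among them the keratins KRT8 and KRT18 at 1939 to 2767 and 2218 to 4236 counts per library. Fibroblast markers were counted in all libraries. Of 16 fibroblast markers 8 rose and 5 fell (median 0.22), and their summed level was 19460 and 19810 CPM of the plain library total with p53 shRNA 2, against 19330 and 19360 with vector. THY1, a surface marker of fibroblasts, fell to 42.7 and 47.2 CPM with p53 shRNA 2, against 121 and 121 CPM with vector (-1.43, adjusted p 8.2e-24). Of 10 tested epithelial markers 1 rose and 3 fell (median -0.20), with sums of 932.6 and 898.5 with p53 shRNA 2 and 996.8 and 989.7 with vector, nearly all of it from genes other than EPCAM and CDH1; without p53 shRNA 2 library 2 or vector library 1, 1 of them fell. The leukocyte list summed to 408.6 and 423.7 with p53 shRNA 2 and 400.9 and 397.4 with vector, of which CD68 made up most (403.2 and 418.8 with p53 shRNA 2, 399.2 and 395.2 with vector, on the same plain scale), while PTPRC had 0 to 3 counts per library and CD3E 0. The endothelial list summed to 110.2 and 108.5 with p53 shRNA 2 and 149.5 and 148.2 with vector, most of it TIE1 (97.35 and 97.13 with p53 shRNA 2, 135.3 and 134.2 with vector), with CDH5 at 0. The mesothelial list summed to 142.4 and 147.8 with p53 shRNA 2 and 192.7 and 192.1 with vector. In bulk libraries fewer cells of a type and less RNA per cell cannot be told apart.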

How the data were processed

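RNA of LMSU cells was extracted with an RNeasy column kit and made into libraries with a Kapa mRNA Hyper kit, per the labels' protocols. The authors deposited whole-number counts per gene symbol; reads were demultiplexed with bcl2fastq and aligned to hg19 with STAR 2.5, per the submitters' processing notes. How reads were counted, with which strand setting and annotation, is not given in the sources used here, so overlapping and antisense genes may share reads. Counts depend on transcript length, so CPM values of different genes are not ranked as levels.

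From the deposited counts, edgeR 4.0.16 in R 4.3.3 fitted the 8 libraries of the 4 doxycycline groups (TMM factors, quasi-likelihood test, 4 residual degrees of freedom). The spread of each gene was moderated by that of the other genes, with 41 prior degrees of freedom. The p-values of single genes therefore rest mostly on this shared spread. filterByExpr with a minimum count of 10 kept 12980 of 25435 symbols. Tests were two-sided, p-values were adjusted after Benjamini and Hochberg over all 12980 genes, and called means an adjusted p below 0.05. The standard error is the size of the log2 fold change divided by the square root of the F statistic. Total counts per library set the precision; no library was dropped, and the other 4 of the 12 libraries, labelled as without doxycycline, entered 1 alternative only. The 2 libraries of a group differed by more than sampling noise. Same-numbered libraries did not deviate together (r from -0.0539 to 0.0145 between groups), so the fit has no replicate block.

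Named genes were CDKN1A, MDM2 and DCN, the 12 largest fold changes per direction with a mean of at least 5 CPM in the higher group and groups that do not overlap, the 6 largest CPM differences per direction, and up to 5 members of each list by adjusted p with any exception in direction. Some genes that the rule would name are not reported here. The members and lists were chosen with earlier results of these data known, so counts over lists are descriptions. Of 1184 list entries 1169 matched a symbol and 1025 were tested. Promoters are from RefSeq on GRCh38.p14 and were matched by symbol. A list member counted as holding a pattern if any of its promoters did. In the set of all tested genes a single promoter was taken per gene, so the shares are not counted alike. Alternatives used DESeq2 1.42.0, limma 3.58.1, other scalings, filters, library sets and thresholds.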

Additional observations from a re-analysis of the deposited data

Results flagged for a closer look

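Some named genes were called in opposite directions against the same vector libraries with the 2 p53 hairpins, and the direct comparison of the hairpins passed the test for each. The log2 fold change of p53 shRNA 2 minus that of p53 shRNA 1 was -1.53 for EFEMP1, 1.55 for CEMIP and 0.96 for TMEM2, whose values are given above. TNFRSF9, a receptor of the tumour necrosis factor family, was at 32.6 and 33.9 CPM with p53 shRNA 2, 66.1 and 63.9 CPM with p53 shRNA 1, 54.2 and 53.1 CPM in scramble and 46.8 and 47.0 CPM with vector, a difference between hairpins of -0.97. The glucose transporter gene SLC2A3 was at 1296 and 1299 CPM with p53 shRNA 2, 823 and 798 CPM with p53 shRNA 1, 735 and 744 CPM in scramble and 1065 and 1063 CPM with vector, a difference of 0.68. MCM4 was at 114 and 109 CPM with p53 shRNA 2, 73.1 and 70.5 CPM with p53 shRNA 1, 74.5 and 76.4 CPM in scramble and 94.7 and 92.2 CPM with vector, a difference of 0.64, and the stress gene DDIT4 differed by 0.44 and MLXIP by 0.52. The adjusted p of the direct comparison was 1.3e-25 for EFEMP1, 1.4e-23 for CEMIP, 4.9e-12 for TMEM2, 2.1e-15 for TNFRSF9, 2.5e-19 for SLC2A3, 1.5e-12 for MCM4, 2e-11 for DDIT4 and 5.6e-11 for MLXIP.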

How the results depend on the processing

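The count of 6066 called genes moved by over 1.5 times under 2 choices. Fitting all 12 libraries of the series together gave 2801 called genes, 1231 higher and 1570 lower, and ended the calls of ATM, COL6A3, DDIT4, ETV5, KRT18, KRT8, MCM6, MLX, MSH6, RAD50, RPSA, SLC16A3, VIM and YAP1. The test against a fold of 1.5 gave 747, 314 higher and 433 lower. With scramble in place of vector 4091 were called, of which 1929 were lower, over 1.5 times fewer than with vector. DESeq2 called 4531, limma-voom 6070, RLE factors 6076, upper-quartile factors 6062 and library totals 6108. No low-count filter gave 5976, a minimum count of 50 gave 5825, the 4 compared libraries alone gave 6313, and an adjusted p below 0.01 left 4809. A replicate block, for numbers that did not pair the libraries, gave 5890 and ended the calls of KRT18 and MCM6 among the named genes. Leaving out 1 library of the 8 gave 4943 to 6249 called genes, 2408 to 3072 of them higher and 2535 to 3178 lower; where that leaves 1 library in a group, its spread is taken from the other groups. Without scramble as reference, named genes kept direction and call in 3011 of 3099 alternative values. In p53 shRNA 2 against scramble, the log2 fold change had the opposite sign for APLN (0.37), BIRC3 (-0.0886), CCND1 (-0.35), CDT1 (0.44), CEMIP (-0.58), CXCL2 (-0.26), CXCL5 (-0.25), ENO1 (0.38), GPI (0.13), HLA-E (-0.0767), IFI44L (-0.28), IL1A (-0.49), IL24 (-0.76), KRT18 (0.31), LDHA (0.50), LTBP3 (-0.0236), MCM2 (0.0399), MCM6 (-0.18), MFSD2A (-0.0023), MMP2 (-0.0525), MMP9 (-0.52), MYBL2 (0.61), NDRG1 (0.78), ORC1 (0.0248), PGK1 (0.77), RAD50 (-0.0213), SLC2A1 (0.49), SPC25 (0.60), TIMELESS (0.13), TRIB3 (0.0282). The list median had the opposite sign there for CXC and CC chemokines (-0.25), collagen chain genes (-0.0719), complement genes (-0.23), cytosolic heat shock genes (-0.048), DNA repair genes (0.088), DREAM and MuvB subunits (0.0689), EMT and cadherin genes (-0.0103), ER chaperone and unfolded protein response genes (-0.20), epithelial markers (0.29), fibroblast markers (-0.18), G1/S and DNA replication genes (0.15), glycolysis and lactate genes (0.37), growth factors of receptor tyrosine kinases (-0.11), histone genes and histone chaperones (0.0233), hypoxia-inducible genes (0.45), interferon-stimulated genes (-0.0615), interleukins and other cytokines (-0.27), MHC class I antigen presentation genes (-0.18), small leucine-rich proteoglycans (-0.14), microRNA and RNA interference machinery (-0.0342).

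Some medians near 0 changed sign elsewhere. With library totals the median was -0.0202 for AP-1 and immediate early genes, -0.0406 for CDK inhibitors and cyclins of G1, -0.0136 for receptor tyrosine kinase genes, -0.0261 for microRNA and RNA interference machinery. With no low-count filter the median was -0.00483 for CDK inhibitors and cyclins of G1. With a minimum count of 50 the median was 0.0109 for integrin and laminin genes. Leaving out 1 library moved the median for CDK inhibitors and cyclins of G1 between -0.0303 and 0.0415, negative without p53 shRNA 2 library 1 and without vector library 1. Leaving out 1 library moved the median for receptor tyrosine kinase genes between -0.0472 and 0.0343, negative without p53 shRNA 2 library 2 and without vector library 2. The causes were not tested. With 2 libraries a group, the depth of each library bounds what can be seen in genes under the count minimum.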
